A study of Rattus norvegicus with 8 samples.

Results

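The miR-10, miR-196 and miR-615 genes are embedded in the Hox gene clusters, and their mature forms were examined in the kidneys of rats given aristolochic acid (AA), a plant toxin that damages and causes tumours in the kidney. The members were all miRNAs of the deposited count table whose names placed them in these families, with both arms of the hairpin where both were listed. That gave 13 of 620 listed miRNAs, of which 5 were miR-10, 6 were miR-196 and 2 were miR-615 forms, from 6 hairpins. They were chosen by name alone, although earlier results of these data were known when the choice was made. A starred name is the arm that the older nomenclature treated as the minor strand, and 2 of the 13 names were spelled in lower case (mir-10b* and mir-615*).

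All 8 rats were male Big Blue transgenic Fisher 344 animals, a strain carrying a reporter transgene for mutation assays, and 1 small RNA library was made from the kidney of each. The 4 AA-treated rats received the sodium salt of AA at 10.0 mg/kg by gavage 5 times a week from 6 weeks of age, the 4 control rats were gavaged equally often with 0.9% sodium chloride, and tissue was taken 1 day after the last dose. The protocol gave 12 weeks of dosing, whereas the sample labels gave 12, 13, 14 and 15 weeks for rats 1, 2, 3 and 4 of each group, beside an age of 18 weeks for every rat. Rat number and labelled duration therefore cannot be told apart.

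Hox genes encode the transcription factors that set position along the body axis, and the clusters also hold miRNA genes that are transcribed with their neighbours. miR-10 lies near the Hox4 genes and miR-196 near the Hox9 genes, and several Hox transcripts are established miR-196 targets, among them Hoxb8. miR-10a is known to be abundant in kidney. Because a miRNA pairs with its targets mainly through its seed, the bases from position 2 to 8, miRNAs with the same seed are often read as 1 family. Families here were set by name with both arms, so they include forms with other seeds.

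Of the 13 members, 10 could be matched to a mature sequence in RefSeq (assembly GRCr8), and the forms on which the results turn are shown 5′ to 3′ with the seed in capitals. The 3 main arms of miR-196 shared a seed, whereas the annotated miR-10a-5p and miR-10b did not.
rno-miR-10a-5p: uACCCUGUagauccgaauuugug
rno-miR-10b: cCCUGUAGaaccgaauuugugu
rno-miR-10a-3p: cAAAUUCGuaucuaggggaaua
rno-miR-10b*: aCAGAUUCgauucuaggggaa
rno-miR-196a: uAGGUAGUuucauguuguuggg
rno-miR-196b: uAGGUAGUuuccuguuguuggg
rno-miR-196c: uAGGUAGUuucguguuguuggg
rno-miR-615: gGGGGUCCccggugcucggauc

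The seed difference between miR-10a-5p and miR-10b came from where the annotation starts. RefSeq begins miR-10b 2 bases further into its hairpin, and a window of the Mir10b hairpin that takes in those 2 bases has the miR-10a-5p seed.
Mir10b hairpin window: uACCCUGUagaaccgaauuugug
Over its 23 bases this window differed from miR-10a-5p at 1 position (U12A, counted from 1 at the 5′ end, with the miR-10a-5p base first). The miR-196 main arms also differed from each other at a single base of 22, in the middle of the molecule and outside the seed (A12C from miR-196a to miR-196b, A12G from miR-196a to miR-196c). How reads that matched several of these near-identical forms were shared out is not given in the sources used here, so counts of single paralogues are uncertain. The sum over a family depends less on that rule.

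The hairpins lie on 4 rat chromosomes in the GRCr8 assembly. Mir10a is at chr10:81779709-81779818 on the plus strand between Hoxb5 and Hoxb4, and Mir196c is in the same cluster at chr10:81727551-81727630, plus strand, between Hoxb13 and Hoxb9. Mir10b is at chr3:80035859-80035967, plus strand, within the span of the Hoxd4 gene. Mir196a is at chr7:135988876-135988985, plus strand, between Hoxc10 and Hoxc9, and Mir615 is at chr7:136030353-136030444, plus strand, within the spans of Hoxc6 and Hoxc5. Mir196b is at chr4:82661101-82661185 on the minus strand between Hoxa9 and Hoxa10. Exons were not used here, so intronic and exonic placement is not stated. The hairpins of Mir10b and Mir615 are shown in full because the distribution of reads over their arms is described later, with the mature forms that RefSeq lists in capitals.
Mir10b: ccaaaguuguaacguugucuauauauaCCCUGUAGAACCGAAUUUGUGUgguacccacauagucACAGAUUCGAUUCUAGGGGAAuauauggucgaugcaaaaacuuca
Mir615: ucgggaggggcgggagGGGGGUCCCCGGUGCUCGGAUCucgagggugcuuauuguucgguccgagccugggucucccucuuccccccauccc

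The libraries held 13736874 to 15525397 counts in the controls, and those of treated rats 13412373 to 15616670. Normalized counts are counts divided by a median-of-ratios size factor, which ranged from 0.818 to 1.06 in controls and from 0.891 to 1.28 in treated rats. The members took 6.56% to 11.9% of all counts in controls and 6.65% to 12.2% in AA-treated rats. miR-21 took 2.51% to 3.39% of counts in controls and 7.43% to 19.2% in treated rats. The median log2 fold change of all 620 was 0.05 with size factors and 0.31 with total counts. A difference was called at an adjusted p below 0.05 with a fold change over 1.5. Each library is 1 rat, so p-values measure the spread between rats.

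None of the 13 Hox cluster miRNAs was called different between AA-treated and control kidneys by edgeR (quasi-likelihood test, Benjamini-Hochberg adjusted), against 9.03% of all 620 miRNAs (56 called). No member reached an unadjusted p below 0.05 in that fit, against 23.9% of all miRNAs, while limma-voom, DESeq2 and the TMM normalization each gave 1 member and total-count scaling gave 3. The 23.9% belongs to the edgeR fit with size factors. Matching shares under these 4 alternatives are not given here, so their counts cannot be read as an excess among the members. In 2 of 13 members the groups did not overlap, against 16.3% of all miRNAs, and in both the AA-treated rats were above, against 9.68%. By sign of the fold change, all 6 miR-196 forms were positive and all 5 miR-10 forms negative. The share of all miRNAs with each sign is not given here, and their median was 0.05. miR-10b lay at -0.008, and mir-10b* had 0 to 5 counts a library. However, miR-10a-3p, miR-10b and miR-10b* were positive under total-count scaling and miR-10b also under TMM. Leaving out 1 rat gave both signs for miR-10a-3p, miR-10b, miR-196a* and miR-196c*. The median log2 fold change of the members was 0.16, or 0.11 above that of all miRNAs.

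**Figure D1:**
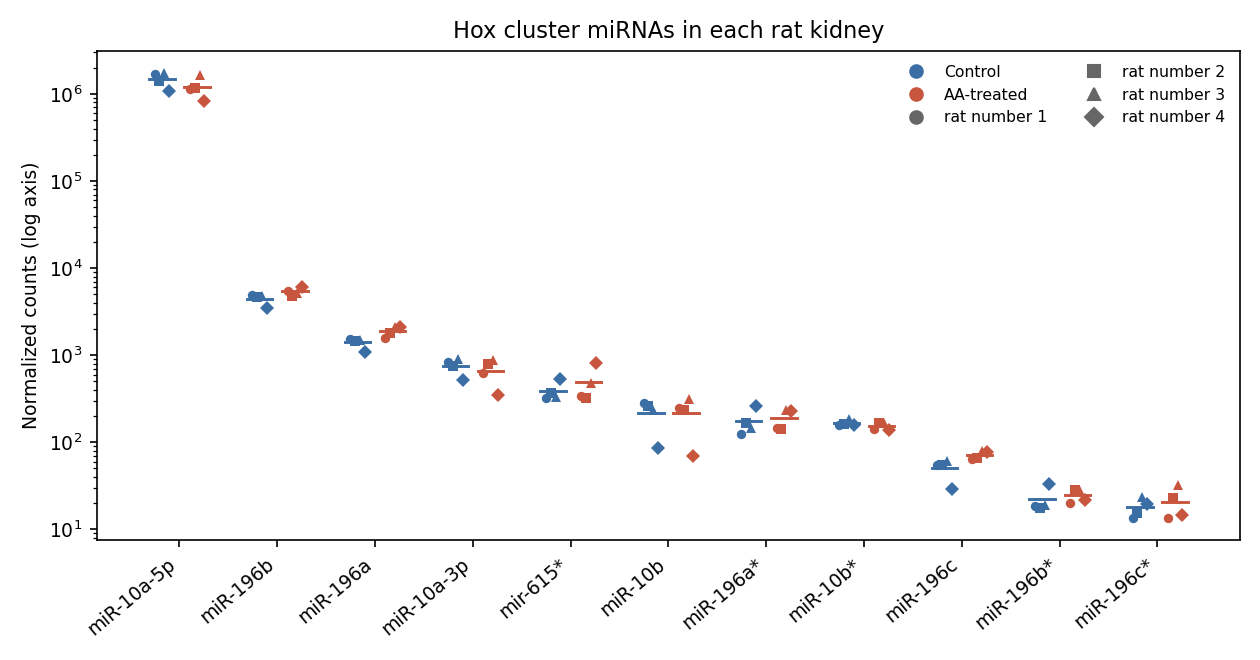
Normalized counts on a log axis for the 11 members with at least 10 counts in every rat, with 1 point a rat (colour by group, shape by rat number) and a line at each group mean. miR-10a-5p lies 332-fold above the next member, miR-196b, in control means, and only miR-196a and miR-196c have every AA-treated rat above every control rat.

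The plot of levels by rat shows 1 dominant form. miR-10a-5p, the main product of the Hoxb locus, had 1686832, 1395428, 1741941 and 1094299 normalized counts in control rats 1 to 4 and 1153850, 1175079, 1654201 and 836129 in AA-treated rats 1 to 4. It was the most counted member in every rat and ranked 4 or 5 among all miRNAs in each library. The groups overlapped, and rat 4 was the lowest of each. The mean was 1479625 ± 298502 (SD, n = 4) in controls and 1204814 ± 337322 (SD, n = 4) in AA-treated rats. Its log2 fold change was -0.30 (SE 0.23, 95% interval -0.79 to 0.20), with an edgeR quasi-likelihood adjusted p of 0.460 after Benjamini-Hochberg adjustment. It was -0.05 with total-count scaling, -0.15 without AA-treated rat 4 and -0.50 without AA-treated rat 3.

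The opposite arm, miR-10a-3p, had 837.8, 744.6, 897.8 and 518.1 normalized counts in controls and 627.3, 786.7, 889.5 and 346.9 in AA-treated rats, in the order of rat number. Rat 4 was again the lowest of each group, and the groups overlapped. The log2 fold change was -0.18 (SE 0.29, 95% interval -0.80 to 0.44; adjusted p = 0.714 by edgeR). The ratio of the arms, miR-10a-5p over miR-10a-3p, ran from 1494 to 2410 over the 8 rats, so nearly all counts of the hairpin came from the 5′ arm.

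miR-10b, the main form of the Hoxd locus, had 281.7, 261.4, 237 and 86.8 normalized counts in controls and 244.6, 237.3, 312.6 and 69.2 in AA-treated rats. In each group rats 1 to 3 were within a narrow range and rat 4 stood well below, at 0.334 of the mean of the other 3 in controls and 0.261 in AA-treated rats. The group means were 217 ± 88.5 and 216 ± 104 (SD, n = 4 each). The log2 fold change was -0.01 (SE 0.43, 95% interval -0.93 to 0.91; adjusted p = 0.988 by edgeR). The width of this interval does not exclude a change of the size that was called elsewhere. Its 3′ arm, miR-10b*, was the steadiest member, with 157, 161.4, 183.9 and 157.6 in controls and 141.4, 164.7, 164.7 and 137.6 in AA-treated rats. Its coefficient of variation was 7.75% in controls and 9.61% in treated rats, and its log2 fold change was -0.12 (SE 0.22; adjusted p = 0.760 by edgeR). The lower-case mir-10b* had 0 to 5 counts a library, 1, 5, 3 and 0 in controls and 2, 3, 0 and 1 in treated rats, too few to describe a difference (log2 fold change -0.76, 95% interval -2.75 to 1.22).

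The 2 miR-10 loci looked unlike when read from one arm or the other. From the main arms, miR-10a-5p exceeded miR-10b by 4717-fold to 12614-fold over the 8 rats. From the 3′ arms, miR-10a-3p exceeded miR-10b* by only 2.52-fold to 5.40-fold. Within the Mir10b hairpin the annotated miR-10b was 1.29 to 1.90 times miR-10b* in rats 1 to 3 of both groups and 0.550 and 0.503 times in the rats numbered 4. Reads from the Mir10b hairpin that begin at the window shown above differ from miR-10a-5p by a single base, and how many of them were counted as miR-10a-5p was not tested. Levels of different miRNAs are counts in a library and not molar amounts.

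**Figure D2:**
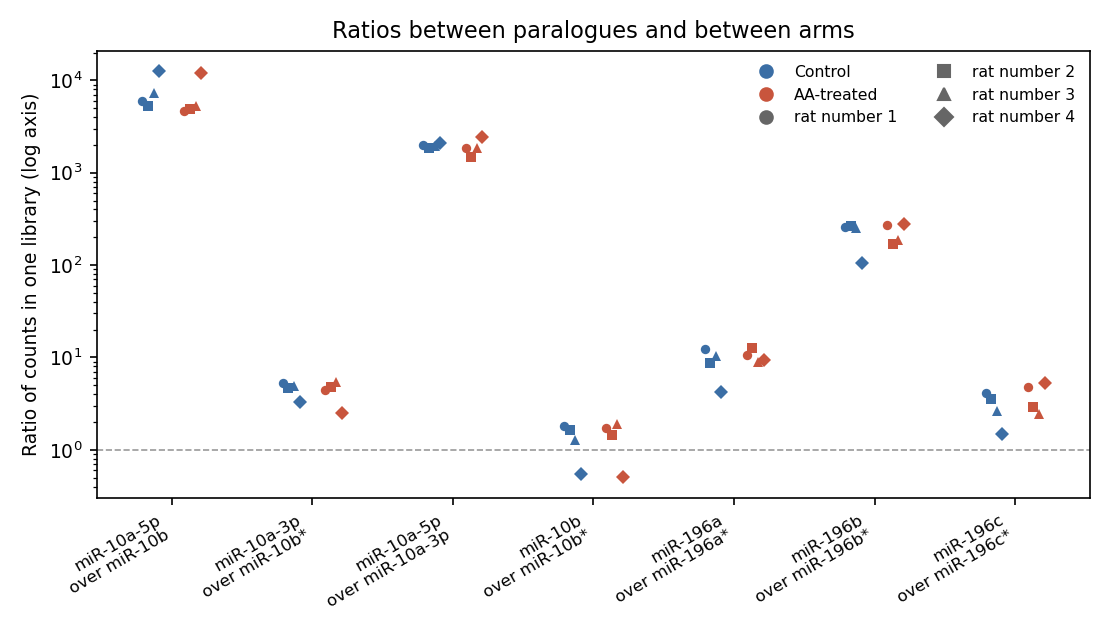
Ratios of counts within each library, on a log axis, between paralogues and between the arms of 1 hairpin (colour by group, shape by rat number, dashed line at a ratio of 1). The 5′ arms put miR-10a above miR-10b by 4717-fold to 12614-fold and the 3′ arms by 2.52-fold to 5.40-fold, and miR-10b falls below miR-10b* only in the rats numbered 4.

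The plot of ratios also shows that the miR-196 hairpins differed in how unequal their arms were. miR-196b was 105.7 to 277 times its starred arm, miR-196a was 4.19 to 12.5 times, and miR-196c was 1.5 to 5.22 times. Control rat 4 had the lowest ratio for each of the 3 hairpins.

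miR-196b, from the Hoxa cluster, had 4850, 4712, 4800 and 3487 normalized counts in controls and 5482, 4790, 5200 and 6090 in AA-treated rats. Control rat 4 was the lowest of the 8 and AA-treated rat 4 the highest, while AA-treated rat 2 lay within the control range. The means were 4462 ± 653 and 5390 ± 546 (SD, n = 4 each), and the log2 fold change was 0.27 (SE 0.19, 95% interval -0.13 to 0.67; adjusted p = 0.396 by edgeR). With total-count scaling its groups also ceased to overlap, which made 3 such members. The share of all miRNAs without overlap under that scaling is not given here. Their median log2 fold change under it was 0.31.

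miR-196a, from the Hoxc cluster, had 1554, 1441, 1514 and 1095 normalized counts in controls and 1565, 1781, 2122 and 2111 in AA-treated rats. Every treated rat was above every control, although AA-treated rat 1 and control rat 1 differed by little. The means were 1401 ± 209 and 1895 ± 271 (SD, n = 4 each), which gave 0.44 as the log2 fold change (SE 0.20, 95% interval -0.0008 to 0.87). No member had a lower adjusted p (0.210 by edgeR), and the adjusted p ran from 0.0717 to 0.369 over the alternatives, also fitted across all miRNAs.

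miR-196c, which shares the Hoxb cluster with Mir10a, was much scarcer at 55.1, 54.9, 61.6 and 29.3 normalized counts in controls and 64, 65.6, 78.9 and 76.6 in AA-treated rats. Again no treated rat fell within the control range. The log2 fold change was 0.50 (SE 0.29, 95% interval -0.13 to 1.13; adjusted p = 0.322 by edgeR). The main arms kept similar proportions: miR-196b was 2.45 to 3.50 times miR-196a, and miR-196a was 24.5 to 37.3 times miR-196c.

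The starred miR-196 arms overlapped between groups. miR-196a* had 125.8, 165.8, 146 and 261.5 normalized counts in controls and 145.9, 142, 236.7 and 227.2 in AA-treated rats, with a log2 fold change of 0.11 (SE 0.29). Unlike miR-196a itself, it was highest in control rat 4. miR-196b* ranged from 17.6 to 33 in controls and 20.2 to 28.1 in AA-treated rats (log2 fold change 0.16, SE 0.34), and miR-196c* from 13.5 to 23.7 and 13.5 to 32.5 (0.21, SE 0.38).

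Mir615, in the Hoxc cluster, was read almost entirely from the arm named with a star. mir-615* had 3634 counts over the 8 libraries and miR-615 had 25, so 99.3% of the counts went to mir-615*, a 145-fold difference. RefSeq lists a mature form for the other, rarely counted arm, at bases 17 to 38 of the 92-base hairpin, and 77.3% of that form is G or C. mir-615* had 320.1, 372.3, 331.8 and 535.2 normalized counts in controls and 343.4, 326.2, 482.2 and 802.9 in AA-treated rats, highest in rat 4 of each group. Its log2 fold change was 0.33 (SE 0.31, 95% interval -0.33 to 0.98; adjusted p = 0.527 by edgeR). miR-615 had 3, 0, 1 and 4 counts in controls and 2, 3, 3 and 9 in treated rats, close to the 3 counts that a library with none still allows (log2 fold change 0.78, 95% interval -0.88 to 2.43). The intervals come from the edgeR fit and rest on the spread between rats. The floor covers counting error only, and PCR reads without molecular identifiers are not independent molecules.

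**Figure D3:**
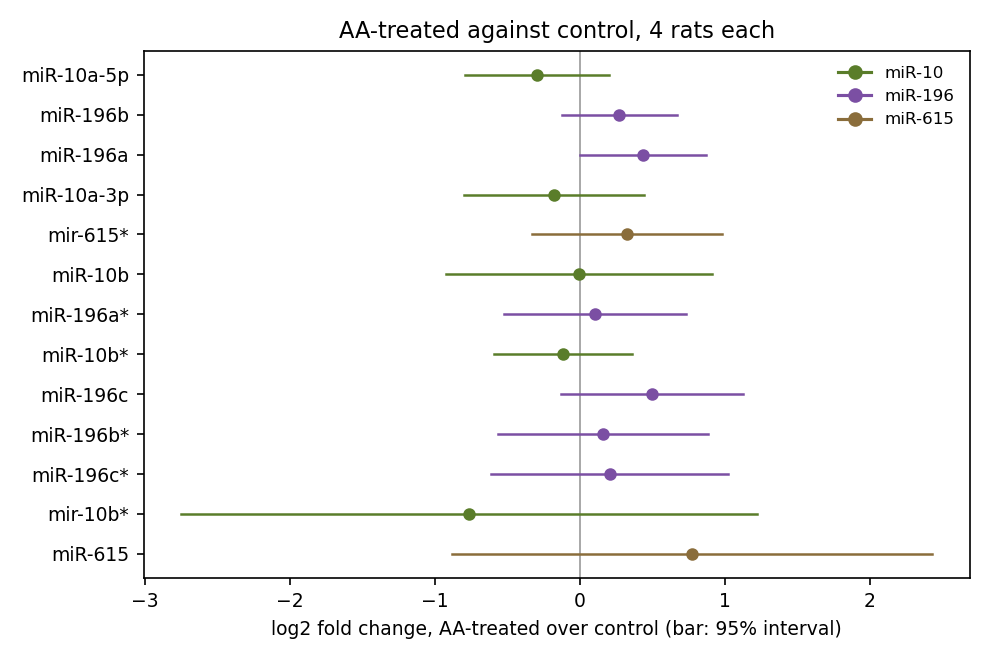
Log2 fold change of AA-treated over control rats for each of the 13 members from the edgeR fit, with 95% intervals as bars and colour by family. All intervals include 0, that of miR-196a only just (-0.0008 to 0.87), and the widest are those of mir-10b* and miR-615, which had 0 to 9 counts a library.

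In the controls the order of the means was miR-10a-5p, miR-196b, miR-196a, miR-10a-3p, mir-615*, miR-10b, miR-196a*, miR-10b*, miR-196c, miR-196b*, miR-196c*, mir-10b* and miR-615. The ranges of the upper 4 in controls were separate, and that of miR-10a-3p overlapped mir-615*. Ranges of neighbours in this order also overlapped for miR-10b and miR-196a*, miR-196a* and miR-10b*, miR-196c and miR-196b*, miR-196b* and miR-196c*, and the 2 scarcest.

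Families were then summed over their listed forms, and the sums and ratios were compared with exact two-sided permutation tests over the rats, 4 tests in all. The miR-10 sum, almost wholly miR-10a-5p (1686832 of 1688110 in control rat 1), overlapped between groups, with a log2 difference of -0.31 (exact permutation p = 0.314, adjusted 0.419). Between rats of the same number it was lower in the treated rat in 4 of 4 pairs, with log2 differences of -0.55, -0.25, -0.07 and -0.39 (exact sign-flip p = 0.125, the smallest possible). The log2 difference was -0.06 with total counts, -0.15 without AA-treated rat 4, -0.48 without AA-treated rat 3, and -0.08 for the miR-10b forms alone, a sum added after seeing the data. The miR-196 sum was 6617, 6406, 6564 and 4925 normalized counts in controls and 7291, 6829, 7698 and 8541 in AA-treated rats. All treated rats were above all controls, also in 4 of 4 pairs of equal number, with means of 6128 ± 807 and 7589 ± 727 (SD, n = 4 each), a log2 difference of 0.31 (exact permutation p = 0.0286, the smallest that 4 against 4 allows, and 0.0571 after adjustment over the 4 tests). This failed the correction, which no value of the sum could have passed. The miR-196 sum and, as given next, the miR-10 to miR-196 ratio had the smallest p, and the other tests did not. With only those at that p, adjustment over the 4 tests cannot go below 0.0571, even for groups fully apart. The correction therefore does not decide whether the miR-196 sum or the ratio differed. The log2 difference of the miR-196 sum was 0.57 with total-count scaling. Leaving out control rat 4 gave a log2 difference of 0.21 (exact permutation p = 0.0571), control rat 2 gave 0.34 (0.0571 likewise), AA-treated rat 4 gave 0.26 (exact permutation p = 0.0857), and leaving out both rats numbered 4 gave 0.15 (exact permutation p = 0.1, the smallest that 3 against 3 allows). The groups stayed apart in each of these.

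The ratio of the miR-10 sum to the miR-196 sum needs no size factor. It was 255.1, 218, 265.6 and 222.3 in controls and 158.4, 172.3, 215.1 and 98 in AA-treated rats, so the groups did not overlap, although AA-treated rat 3 came within a few units of the lowest control. The means were 240.3 ± 23.6 and 160.9 ± 48.4 (SD, n = 4 each) and the log2 difference was -0.63 (exact permutation p = 0.0286, adjusted 0.0571). Leaving out any 1 control rat gave -0.67 to -0.58 (exact permutation p = 0.0571). The groups stayed apart in each, and p rose because another split of the remaining rats differed at least as much. Leaving out both rats numbered 4 gave -0.44 (exact permutation p = 0.1). Within each pair of equally numbered rats the treated rat had the lower ratio, in 4 of 4 pairs (exact sign-flip p = 0.125, the smallest that 4 pairs allow). For the pair in the Hoxb cluster, miR-10a-5p over miR-196c was between 25411 and 37317 in controls and between 10923 and 20968 in AA-treated rats. For the pair in the Hoxc cluster, mir-615* over miR-196a, the groups overlapped (0.206 to 0.489 in controls, 0.183 to 0.380 in AA-treated rats). Neither pair was among the exact tests. The Hoxb ratio is not independent of the family ratio, since miR-10a-5p makes up nearly all of the miR-10 sum. The ratio of miR-10a-5p to miR-10b overlapped between groups (log2 difference -0.25, exact permutation p = 0.457, adjusted 0.457) and was lower in the treated rat in 4 of 4 pairs (exact sign-flip p = 0.125).

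**Figure D4:**
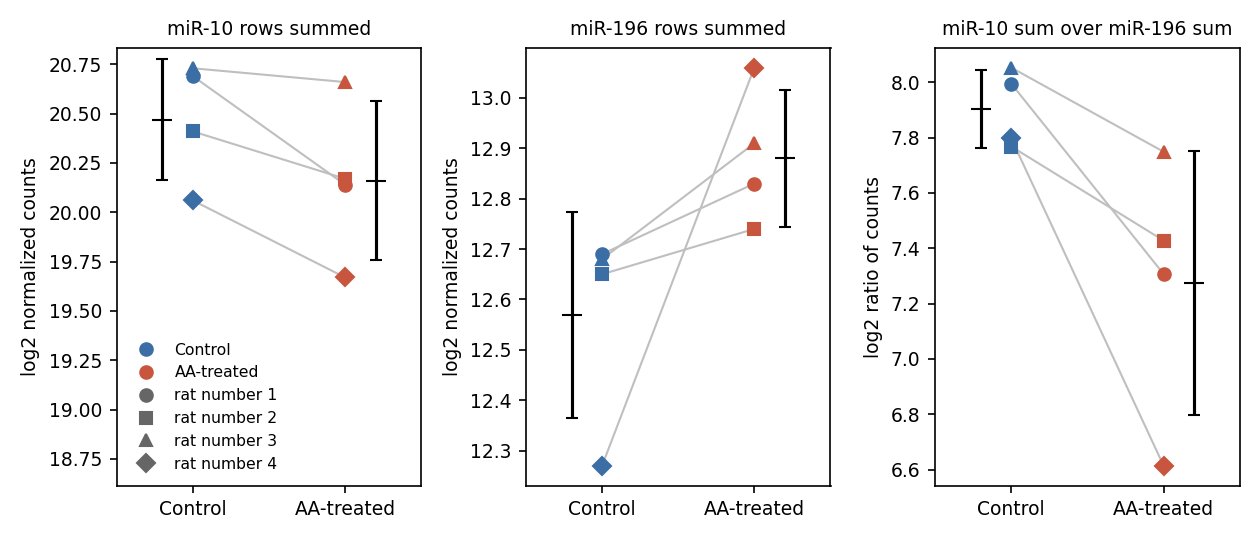
Log2 normalized counts of the miR-10 and miR-196 sums and the log2 ratio between them, with 1 point a rat, grey lines joining rats of the same number, and a black mark and bar for the group mean ± SD (n = 4). The miR-196 sum is higher and the ratio lower in every AA-treated rat than in every control rat, and control rat 4 has the lowest miR-196 sum.

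The plot of sums by rat shows that equally numbered rats moved together in miR-10, with rat 3 the highest and rat 4 the lowest of each group. Of the 11 members with at least 10 counts in every rat, 3 were below the other 3 rats in both rats numbered 4 (miR-10a-5p, miR-10a-3p and miR-10b) and 1 was above (mir-615*). Over the 305 miRNAs with that many counts the shares were 22.3% below and 21.6% above. miR-10a-5p was 1.47-fold and 1.59-fold below, and miR-10a-3p was 1.60-fold and 2.21-fold below, in the control and the AA-treated rat 4. The miR-196 main arms were lower in control rat 4 alone, by 1.37-fold for miR-196a and miR-196b and 1.95-fold for miR-196c. The summed proximal tubule markers were 1161731 in control rat 4 and 357767 to 489042 in the other controls, and nearly all of that sum was miR-192 (1124303 against 328824 to 454738). miR-194 was 36274 against 28345 to 33602, and miR-204 was 587.7 against 338.5 to 436. Their part in the values of that rat was not tested.

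Relatives and markers of other cell types were read in the same fit, as counts. miR-99a, miR-99b and miR-100, the relatives of miR-10, gave 6 listed forms, starred arms included, with none called and a median log2 fold change of -0.31. let-7 and miR-98 gave 17 forms, starred arms included, with none called and a median of 0.24. It is their main arms whose seeds overlap that of miR-196 by a shift. Log2 fold changes were 0.12 to 0.47 for the main arms and -1.61 to 0.71 for the starred arms. Of 57 forms on 11 marker lists, 3 were called higher in AA-treated rats (miR-142-3p and miR-223 of leukocytes and miR-124 of neurons). Another 2 were called lower (miR-194* and miR-204 of the proximal tubule). Over all 620 miRNAs 9.03% were called. By list the calls were 2 of 7 leukocyte, 1 of 4 neuron and 2 of 7 proximal tubule forms. miR-124 was scarce, at 0 to 3.67 normalized counts in controls and 6.90 to 25.0 in AA-treated rats. miR-9 of neurons and miR-142-5p of leukocytes were not called (log2 fold change 0.28 and 0.26). The leukocyte sum was the only list sum without overlap, at 13730 to 17815 in controls and 29515 to 56715 in AA-treated rats, with no leukocyte marker at 0 in every rat. Nearly all of that sum was miR-142-3p (11422 to 15439 in controls, 26580 to 53269 in AA-treated rats). The groups overlapped for miR-142-5p (626.8 to 991.7 and 402.3 to 1503) but not for miR-223 or miR-150. The part of these cells in the miR-196 sum or in the miR-10 to miR-196 ratio was not tested, and in whole kidney fewer cells of a type and less RNA per cell cannot be told apart.

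The miRNAs that varied most like each member were taken over the 8 rats after removing the group means, among 232 non-members with a mean of at least 100 normalized counts, by Pearson's r as a description. The rats share depth and rat number, so these values describe the libraries. For miR-10a-5p they were miR-181a (r = 0.95), miR-429 (0.95) and miR-100 (0.94), the last a relative in sequence. For miR-10a-3p they were miR-598-3p (0.99), miR-664 (0.98) and miR-32 (0.98), and for miR-10b miR-186 (0.98), miR-429 (0.97) and miR-181b (0.97). For miR-10b* they were miR-200a (0.90), miR-195 (0.87) and miR-497 (0.86).

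For miR-196b the nearest were miR-674-5p (0.99), miR-872 (0.98) and miR-503* (0.89), and for miR-196a miR-221 (0.91), miR-135a (0.83) and miR-24-2* (0.83). With the group means left in, r was -0.44 for miR-135a. For miR-196a* they were miR-151 (0.94), miR-26a (0.94) and miR-326 (0.93), and for mir-615* miR-499 (0.93), miR-27a (0.91) and miR-34a (0.90). Left uncentred, r was 0.42 for miR-26a, 0.41 for miR-34a and 0.58 for miR-499. Spearman's rho with centring was lower than r for some, at 0.52 for miR-34a and 0.50 for miR-135a, and at 0.62 for miR-186 with miR-10b. Among the members, miR-10b varied with miR-10a-3p (0.94) and miR-10a-5p (0.89), and mir-615* varied with miR-196a* (0.84) and against miR-10b (-0.85).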

How the data were processed

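Small RNA libraries of 8 rat kidneys were read on the Illumina Genome Analyzer II platform, and the authors counted reads per miRNA with miRanalyzer against miRBase release 16. Per the labels and headers the deposited values are raw counts, 1 library a rat, with 620 listed miRNAs. The submitters' processing notes name CASAVA 1.7. The genome build of the counts is not given in the sources used here. The members and lists were chosen with earlier results of these data known.

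Counts were scaled with size factors (median of ratios) and tested over all 620 miRNAs with edgeR 4.0.16 (glmQLFit and glmQLFTest, R 4.3.3) with Benjamini-Hochberg adjustment, without a filter. DESeq2 1.42.0, limma 3.58.1 (voom), TMM, total counts, robust moderation, a filter of 10 counts in 4 rats, a replicate block and leaving out each rat were alternatives. Sums and ratios were compared by exact permutation tests that went through every labeling of the rats (Python 3.11.15, numpy 2.4.6). The names in the text were all members, and for each with a mean of at least 100 the 3 most similar miRNAs. Fixed lists are given as counts, with those called named.

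Rats of the same number deviated together over 305 miRNAs (correlation 0.215 to 0.519 for the 4 pairs, mean -0.110 for the others). Of the 8 rats, 7 were most like the rat of their own number. Control rat 3 was more like AA-treated rat 2 (0.302) than AA-treated rat 3 (0.215). Rats of the same number were therefore also compared as pairs. Pairing comes from this check and from the labelled duration shared by each number, although those labels differ from the protocol. Counts of the 620 were also simulated with unpaired rats, and changes were set only in miRNAs above a minimum mean count. There edgeR recovered 45.8% of 96 miRNAs changed by 2-fold and 85.6% of 104 changed by 4-fold, with 3.62% of calls false. Smaller changes were not simulated. Library totals of 13412373 to 15616670 limit the precision of members with few counts. Sequences, positions and neighbours are from RefSeq (GRCr8).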

Additional observations from a re-analysis of the deposited data

Results flagged for a closer look

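In 4 of the 26 groups of 4 rats examined, 1 rat lay apart from the others by a gap that exceeded Dixon's 95% critical value for its share of the range. Chance flags about 1 in 20 groups. miR-196b was lowest in control rat 4, at 3487 normalized counts (gap over range 0.899). miR-196b* was highest in the same rat, at 33 (0.910). miR-10b* was highest in control rat 3, at 183.9 (0.833). In AA-treated rat 4 miR-615 stood highest, with 7.33 normalized counts from 9 reads (0.860).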

How the results depend on the processing

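No member was called in any of the 17 alternatives, among them the replicate block (smallest adjusted p 0.167 by edgeR, for miR-196a), which changed no member's call. The miR-196 sum kept its direction, with a log2 difference of 0.31 under the replicate block (exact sign-flip p = 0.125), 0.57 with total counts, 0.15 without both rats numbered 4, and 0.21 to 0.36 leaving out 1 rat (exact permutation p = 0.0286 to 0.0857). The miR-10 to miR-196 ratio was -0.63 under the replicate block (exact sign-flip p = 0.125), -0.44 without both rats numbered 4, and -0.79 to -0.41 leaving out 1 rat (exact permutation p = 0.0286 to 0.0571). With 4 pairs the sign-flip test cannot go below 0.125. The miR-10 sum was -0.06 with total counts and -0.48 to -0.15 leaving out 1 rat, and miR-10a-5p was -0.05 and -0.50 to -0.15. The miR-10a to miR-10b ratio was -0.57 to 0.011 leaving out 1 rat, and reversed to 0.011 without control rat 4. Log2 fold changes that turned positive with total counts were those of miR-10a-3p (0.071), miR-10b (0.22) and miR-10b* (0.14). That of miR-10b was also 0.038 with TMM and 0.035 without both rats numbered 4. Leaving out 1 rat gave both signs for miR-10a-3p (-0.36 to 0.038), mir-615* (-0.016 to 0.51), miR-10b (-0.28 to 0.29), miR-196a* (-0.033 to 0.36) and miR-196c* (-0.093 to 0.37). The cause was not tested. Over single members and alternatives, 14 values changed sign and 192 kept direction and side of the threshold. Read depth limits mir-10b* and miR-615, with 0 to 9 counts a library. Members called with the upper-case names alone, added after seeing the data, were also 0.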
